A study of Homo sapiens with 54 samples.

Results

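DNA replication and S-phase genes encode the proteins that load, start and run the replication fork, together with the enzymes that make its deoxynucleotides and the chaperones that pack the new DNA. The 45 genes were taken by name from the gene column of the deposited table, which lists 38137 genes. All 45 passed the filter on low counts, as did 15378 genes in all. They were followed in HEK293T, a cell line from human embryonic kidney that divides continuously in culture. The 54 RNA-seq libraries fall into 18 groups of 3.

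Cells carried a wild-type genotype by their labels and were harvested 48 h after transfection according to the growth protocol, which is earlier than the time the paper names for this experiment. In 15 groups they were transfected with a plasmid that encoded an RNA-targeting nuclease, either native RfxCas13d (the WT groups) or 1 of its high-fidelity variants RfxCas13d-N2V7 and RfxCas13d-N2V8, which were made to cut fewer bystander RNAs. The crRNA beside each nuclease was non-targeting in the NTG groups and crRNA-13, which is directed at C9ORF72, in the S13 groups. Additional crRNAs define the S3, S4 and S7 groups. Their sites are not in the labels, and the study numbered the crRNAs of its C9ORF72 screen in the same way. The other 3 groups were untransfected cells (UT) and cells given an antisense oligonucleotide (ASO2 and ASO4), whose target and dose the labels do not give. The study's text describes oligonucleotides of these names that bind C9ORF72 transcripts, the former in an intron and the latter in an exon common to the main variants. The series describes each replicate as an independent biological one. By the plasmid names in the study's methods, the broadly active CAG promoter drove the nuclease and a U6 promoter the crRNA. Transfection was transient, and the sources used here describe no selection of transfected cells before RNA was made for these libraries. UT cells are labelled untransfected, so transfection, nuclease and non-targeting crRNA cannot be told apart in a comparison of NTG with UT. In the same way, an oligonucleotide and its delivery cannot be told apart in a comparison of ASO2 or ASO4 with UT.

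Eukaryotic replication is prepared in G1, when ORC, CDC6 and CDT1 load the MCM2-7 helicase at origins, and geminin (GMNN) later blocks CDT1 so that no origin is licensed again. In S phase CDC45 and the GINS complex join MCM2-7 to form the active helicase, primase starts each strand, polymerases delta and epsilon extend them on the PCNA clamp that RFC loads, and FEN1 and LIG1 finish the lagging strand. Many of these genes are transcribed late in G1 under E2F factors, and cyclin E, itself an E2F target, drives entry into S phase.

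Library totals ran from 9546826 to 15099153 estimated counts. The markers of HEK293T cells were present in every library, with vimentin (VIM) between 762 and 1390 CPM (counts scaled to library size with TMM factors) and NEFM between 149 and 500.3 CPM. The lowest of the 6 markers was PAX2, at 2.18 to 8.94 CPM, and KRT8 ran from 6.80 to 20.1 CPM, while 11 markers of blood, endothelium, liver, heart muscle, astrocytes, lung and pancreas stayed at or below 1.86 CPM. C9ORF72, counted over all its transcript variants, averaged 29.3 CPM in WT_NTG and 26.4 CPM in WT_S13 and passed the test in none of the 3 crRNA-13 comparisons, so gene totals check no label there, and it fell by 1.40 on the log2 scale in ASO4 (SE 0.104, edgeR adjusted p = 2.17e-16). One library stood apart. N2V7_S4 library 2 had a residual SD of 0.523, against 0.307 and 0.383 in its own group and at most 0.269 in any other, and the N2V7_S4 results below are given with and without it.

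A gene was called when its fitted change exceeded 1.25-fold in either direction and its Benjamini-Hochberg adjusted p, taken over all genes and all comparisons of the same family, was under 0.05. The test was edgeR's quasi-likelihood F test on all libraries with 1 factor of unwanted variation. The N2V7_S4 group held 95.6% of the factor's squared weight and its library 2 alone held 63.4%, so fits with and without the factor differ mainly in how that group is treated. Fold changes below are log2 values from that fit, whereas levels are CPM. Overlap of libraries is described for members mostly picked by their calls, so it is no separate support. Its share over all genes was not counted. Because RNA came from whole cultures, fewer cells in S phase and less RNA per cell cannot be told apart.

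By level per kb of transcript, PCNA stood highest at 191 CPM per kb, followed by the helicase subunit MCM7 at 154 and the ribonucleotide reductase subunit RRM1 at 128. The lowest were CCNE1 at 6.97, CCNE2 at 8.13 and LIG1 at 9.36 CPM per kb. Across 17 comparisons of 2 groups, 66 of 765 member values were called, 19 of them higher and 47 lower. The share of all genes called varied by comparison and stands beside each count below. For higher calls it ran from 0.917% in ASO4 against UT to 15.3% in N2V8_NTG against UT. For lower calls it ran from 0.65% in WT_S3 to 14.7% in N2V8_NTG against UT, so the pooled count has no single background. LIG1, the ligase that seals Okazaki fragments, was called most often, in 8 comparisons, followed by CCNE2 (cyclin E2) and PRIM1 (the catalytic primase subunit) in 5 each. POLE, RFC4 and RRM2 were called in 4, CDT1, CHAF1A and POLD1 in 3, 7 members in 2 and 13 in 1. The other 16 were called nowhere, among them MCM2, MCM6, ORC1, all 3 RPA subunits, RRM1, TYMS and every clamp loader subunit but RFC4.

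**Figure D1:**
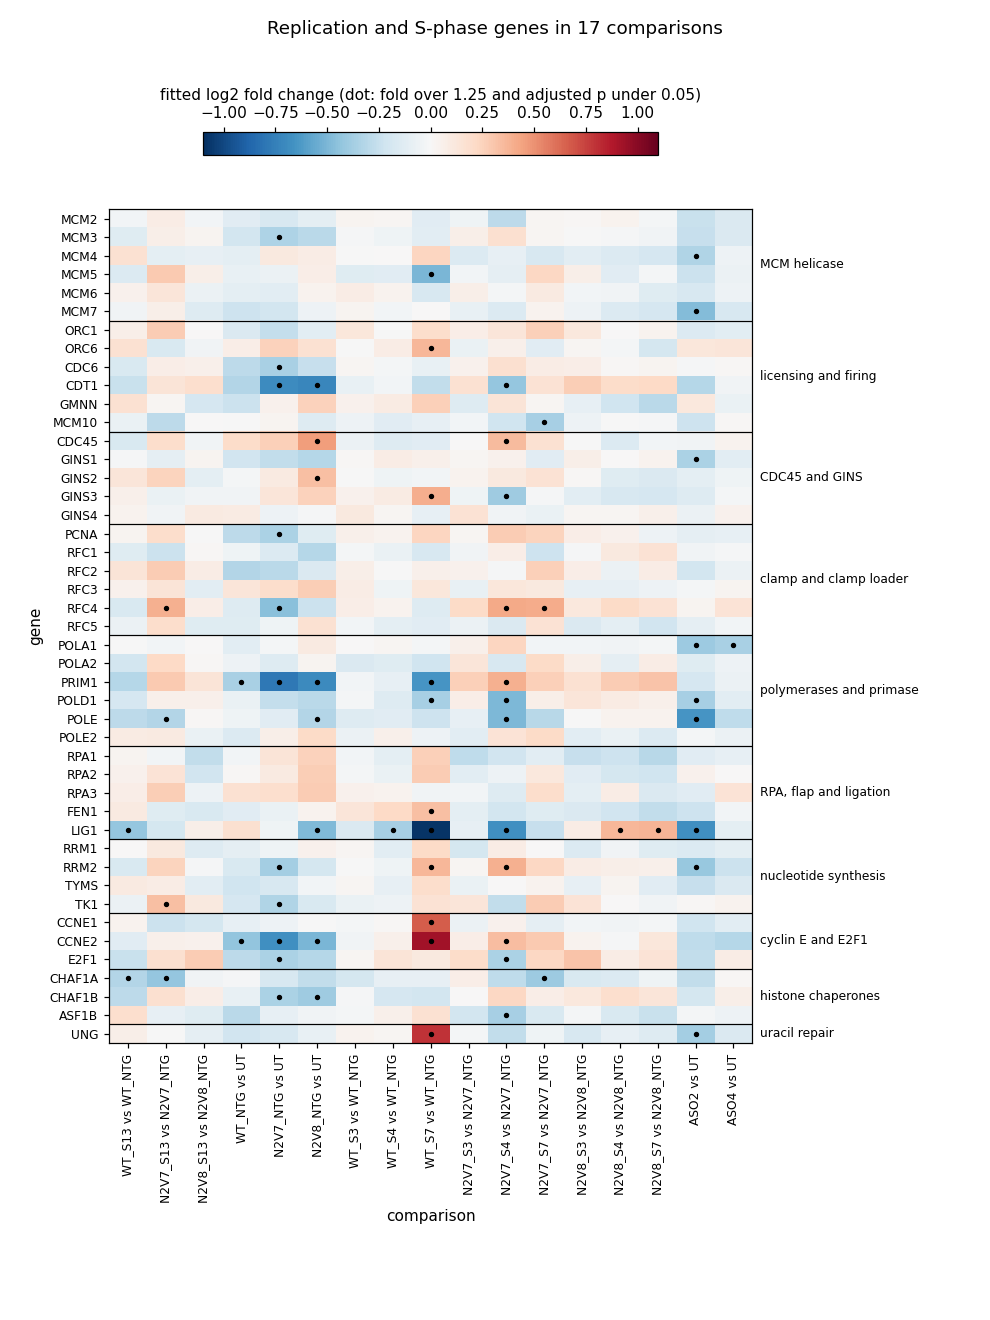
Fitted log2 fold change of each of the 45 genes (rows, grouped by role) in 17 comparisons (columns); a dot marks a call. The dots gather in the columns of N2V7_NTG against UT, WT_S7, N2V7_S4 and ASO2, and the LIG1 row holds 8 of them.

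The promoter sequences were compared because E2F control is what this set of genes is best known for. RefSeq windows on GRCh38.p14, from 250 bases before to 50 bases after the transcript start, were found for 39 of the 45, and MCM4, MCM5, GINS4, RPA2, RPA3 and CCNE2 had no entry. The words searched on both strands were TTTGGCGC, TTTCCCGC, TTTCGCGC and TTTGCCGC, forms of the E2F site that can overlap each other on opposite strands. At least 1 was found in 18 windows of members (46.2%), against 5.34% of 11782 windows of tested genes and 3.33% of all 27305. CCAAT was found in 59.0% of members and 36.6% of tested genes, and TTTGAA, the core of the CHR element of late cell-cycle genes, in 5.13% and 9.6%. A word is a match of letters, not a binding site. The stretches below come from members that were called in at least 1 comparison, are written 5′ to 3′ on the strand of the gene, end at the transcript start at the latest, and carry the word in capitals.
CDT1, chr16:88803744-88803771, plus strand: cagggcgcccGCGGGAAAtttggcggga
GINS2, chr16:85688968-85688995, minus strand: tctcgccgtgGCGGGAAAacggcggccg
PCNA, chr20:5126664-5126691, minus strand: agcgtcagggGCGGGAAAaggcgtgcgt
POLA1, chrX:24693771-24693798, plus strand: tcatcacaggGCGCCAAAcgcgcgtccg
POLE, chr12:132687343-132687370, minus strand: gggtgggagcGCGCCAAAtttctcccct
LIG1, chr19:48170441-48170468, minus strand: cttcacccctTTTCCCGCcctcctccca
E2F1, chr20:33686388-33686428, minus strand: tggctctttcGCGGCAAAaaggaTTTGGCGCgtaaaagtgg
The capitals of CDT1, GINS2 and PCNA are the same word, TTTCCCGC read on the other strand, beginning 35, 31 and 59 bases before the start, and LIG1 has that word in forward reading at 114 bases. POLA1 and POLE share TTTGGCGC on the other strand at 137 and 18 bases. E2F1 carries 2 words, at 33 and 20 bases. PRIM1, RFC4 and RRM2, which were called as often as POLE or more often, had a window with none of these words.

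Cells that carried a nuclease and the non-targeting crRNA were first compared with untransfected cells. In all 3 such groups PRIM1 and CCNE2 fell, and CDT1, which loads the helicase, fell in both high-fidelity groups and in WT_NTG lay at -0.32, within rounding of the limit, and was not called. Members that were called were mostly lower. Of the members not called, 36 of 43 had a negative value in WT_NTG (83.7%), 22 of 34 in N2V7_NTG (64.7%) and 21 of 37 in N2V8_NTG (56.8%), where 50.3%, 50.1% and 50% of all genes not called did. All 3 comparisons share the UT libraries, so their values stand side by side and are not independent.

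PRIM1 measured 90.2, 101 and 96.8 CPM in UT, 71.5, 75.3 and 78.6 in WT_NTG, 56.2, 53.2 and 57.2 in N2V7_NTG, and 62.0, 56.2 and 58.9 in N2V8_NTG. Every NTG library lay below every UT library, and every high-fidelity library below every WT_NTG library. The log2 fold change was -0.35 in WT_NTG (SE 0.0614, edgeR adjusted p = 5.34e-06), -0.79 in N2V7_NTG (SE 0.0636, adjusted p = 2.81e-15) and -0.70 in N2V8_NTG (SE 0.0637, adjusted p = 1.93e-13). The call in WT_NTG was lost without UT library 2 (-0.31) or WT_NTG library 1 (-0.32). CDT1 measured 289, 252 and 278 CPM in UT, 218, 222 and 213 in WT_NTG, 168, 156 and 181 in N2V7_NTG, and 168, 164 and 166 in N2V8_NTG. Its groups did not overlap with UT either, and it changed by -0.69 in N2V7_NTG (SE 0.0533, edgeR adjusted p = 4.83e-16) and -0.71 in N2V8_NTG (SE 0.0535, adjusted p = 2.1e-16). CCNE2 measured 29.3, 27.7 and 26.5 CPM in UT, 21.5, 19.9 and 20.4 in WT_NTG, 15.7, 17.5 and 19.2 in N2V7_NTG, and 19.7, 19.2 and 19.9 in N2V8_NTG. The 3 UT libraries were again the highest, and the log2 fold changes were -0.44, -0.68 and -0.51 in that order (edgeR adjusted p = 0.000421, 4.27e-07 and 7.97e-05). Leaving out any 1 library kept the CCNE2 calls and the CDT1 calls.

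In WT_NTG those 2 genes, PRIM1 and CCNE2, were the only calls (0 higher, 2 lower of 45), beside a background over all genes of 2.71% higher and 2.38% lower. The median member change was -0.11 against -0.0002 over all genes. CDT1 was called without WT_NTG library 1 (-0.32) or 2 (-0.33), and RFC2 without WT_NTG library 3 (-0.33). Without UT library 2 the count was 5 lower, with CDT1 (-0.38), RFC2 (-0.33), CDC6 and PCNA (both -0.32) added and PRIM1 lost. For the 0 higher, 25 of 45 members of either sign had an unadjusted p under 0.05, beside 3320 of all 15378 genes. Both limma-trend and DESeq2 also called 0 higher and 2 lower.

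N2V7_NTG held 11 lower and 0 higher members, where 9.95% of all genes were lower and 10.9% higher. As a share that is 24.4% of members lower. Besides the 3 genes above, RFC4 (a clamp loader subunit) changed by -0.46, RRM2 (the S-phase subunit of ribonucleotide reductase) by -0.37, CDC6 (helicase loader) by -0.36, E2F1 and PCNA by -0.35 each, CHAF1B (chromatin assembly factor 1) and MCM3 by -0.34 each, and TK1 (thymidine kinase 1) by -0.33. Both limma-trend and DESeq2 called 0 higher and 11 lower. An unadjusted p under 0.05 was reached by 31 of 45 members and 6786 of 15378 genes. By role, 2 of 4 nucleotide synthesis genes (RRM2 and TK1) and 2 of 3 cyclin E and E2F1 genes fell. So did 2 of 6 clamp and clamp loader genes and 2 of 6 licensing and firing genes (CDT1 and CDC6). The MCM helicase genes, the polymerases and primase, and the histone chaperones had 1 fall each. UNG, the 5 CDC45 and GINS genes and the 5 RPA, flap and ligation genes had no call. Single libraries decided some of these: without UT library 1, E2F1 (-0.31), PCNA (-0.30) and TK1 (-0.28) were not called, TK1 was not called without UT library 3 (-0.31), and CHAF1B (-0.29), CDC6 (-0.30) and E2F1 (-0.30) were lost without N2V7_NTG library 1, 3 and 2 respectively. With no factor of unwanted variation, E2F1 (adjusted p = 0.0504) and TK1 (adjusted p = 0.0533) also missed the limit.

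N2V8_NTG had 6 lower and 2 higher members, 13.3% and 4.44%, close to or under the backgrounds of 14.7% lower and 15.3% higher. Lower besides CDT1, PRIM1 and CCNE2 were LIG1 (-0.49, SE 0.101, edgeR adjusted p = 0.000111), CHAF1B (-0.39) and POLE, the leading-strand polymerase (-0.32). LIG1 measured 33.2, 35.8 and 35.2 CPM in UT and 25.5, 25.04 and 23.8 in N2V8_NTG, with no overlap. The higher members were both parts of the active helicase, whose other parts were not called. GINS1 had a mean of 89.6 CPM in UT and 72.3 in N2V8_NTG. It was called lower without UT library 3 (-0.36) or N2V8_NTG library 3 (-0.33). The 6 MCM helicase genes had a median change of -0.01. CDC45 rose from 67.0, 71.5 and 66.0 CPM to 92.3, 96.7 and 91.97 (0.46, SE 0.0641, edgeR adjusted p = 5.9e-08), and GINS2 from 62.1, 58.7 and 56.5 to 74.4, 75.4 and 73.6 (0.33, SE 0.0682, adjusted p = 9.07e-05). No library of either gene overlapped between the groups. POLE lost its call without UT library 2 (-0.30), UT library 3 (-0.31) or N2V8_NTG library 2 (-0.31), and GINS2 without UT library 3 (0.30). POLE was not called by limma-trend (-0.32) or in a fit of the compared groups alone (-0.32), and limma-trend called E2F1 (-0.32) in its place.

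**Figure D2:**
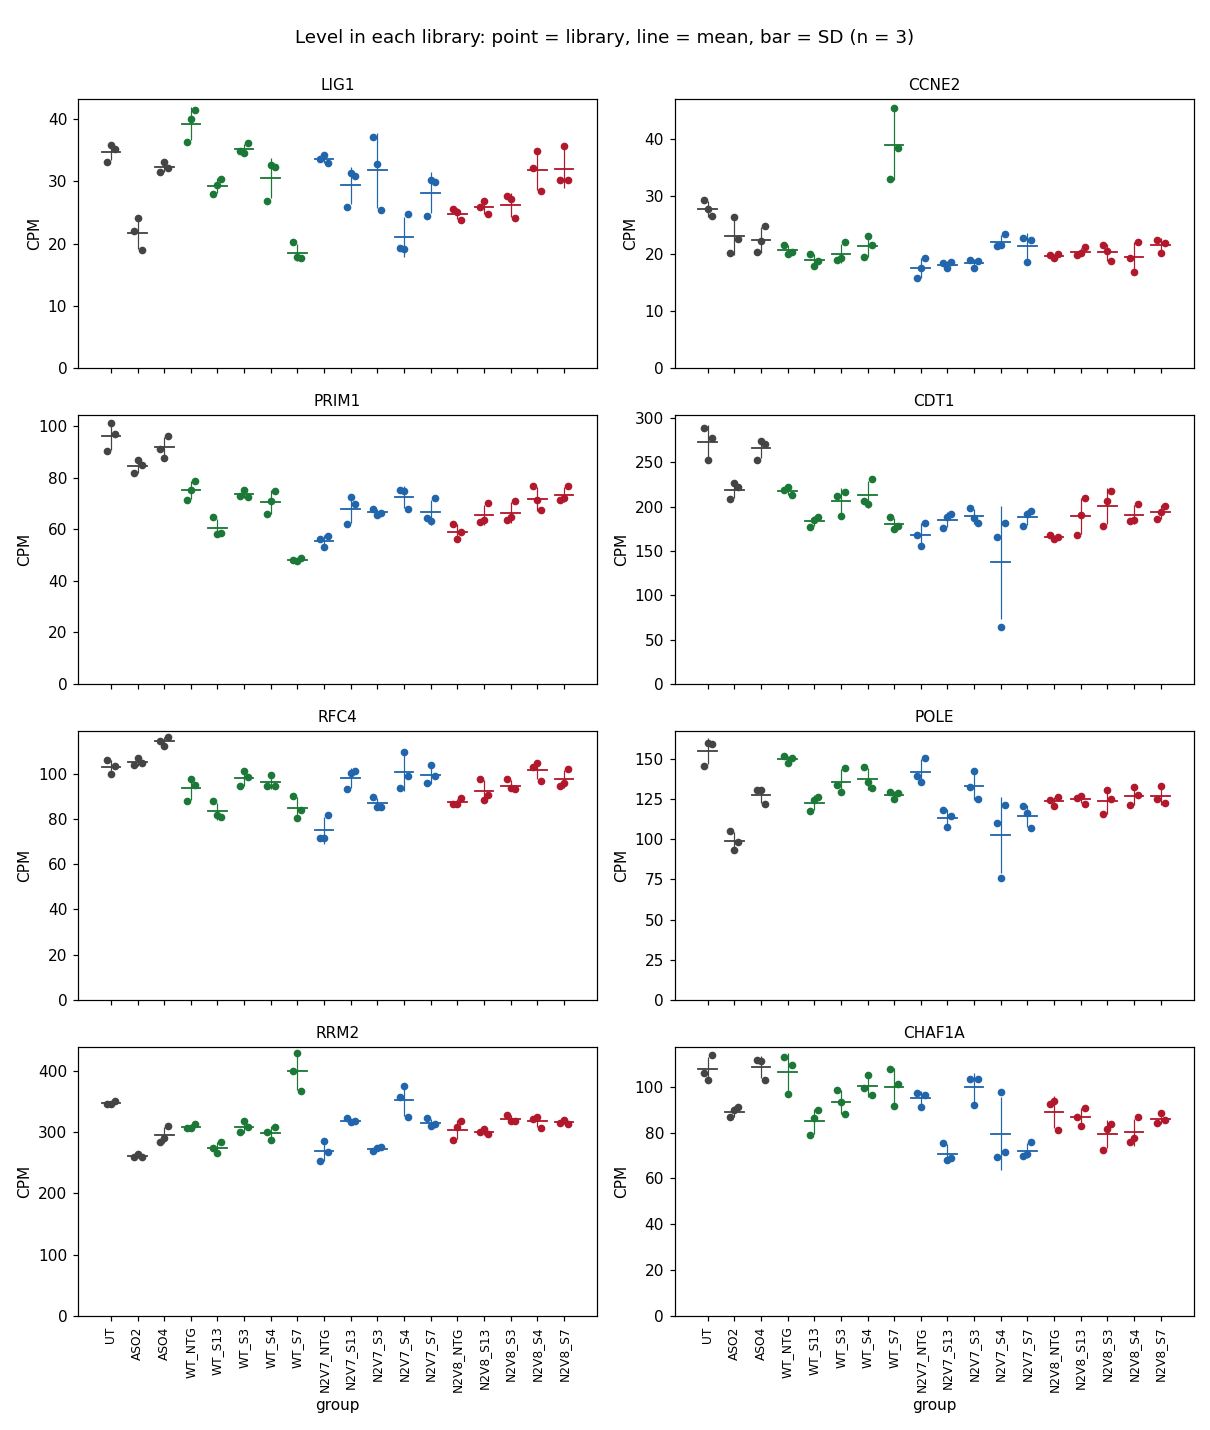
Level in CPM of the 8 genes called in most comparisons or with crRNA-13, by library (points) in 18 groups, with the mean (line) and SD (bar, n = 3). PRIM1 and CDT1 have their highest mean in UT, LIG1 is lowest in WT_S7, and 1 point of CDT1 in N2V7_S4, at 64.4 CPM, lies far under the others.

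Other replication and cell-cycle genes were counted beside the members in the same comparisons against UT. Of 47 other replication genes, 0 were called in WT_NTG, 7 rose and 5 fell in N2V7_NTG, and 9 rose and 8 fell in N2V8_NTG. Of 32 genes of G1/S control, 1 fell in WT_NTG, 4 rose and 4 fell in N2V7_NTG, and 7 rose and 6 fell in N2V8_NTG. Of 16 genes of G2 and mitosis, 2 rose in WT_NTG, 8 in N2V7_NTG and 6 in N2V8_NTG, and none fell, with medians of 0.18, 0.32 and 0.26 on the log2 scale beside -0.11, -0.13 and -0.06 for the members. For the other replication genes in WT_NTG, edgeR gave 14 of 47 with an unadjusted p under 0.05, beside 3320 of all 15378 genes. Over all genes, 2.71%, 10.9% and 15.3% were higher in WT_NTG, N2V7_NTG and N2V8_NTG, and 2.38%, 9.95% and 14.7% lower. In that order 12.5%, 50% and 37.5% of the G2 and mitosis list rose. Of the other replication genes 0%, 14.9% and 19.1% rose and 0%, 10.6% and 17% fell. The G1/S list had 0%, 12.5% and 21.9% higher and 3.12%, 12.5% and 18.8% lower. These lists were compared by counts, shares and medians only.

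Adding crRNA-13 to a nuclease asks which genes move when the crRNA has a target, over the same nuclease with the non-targeting crRNA. With native RfxCas13d, LIG1 and CHAF1A (the large subunit of chromatin assembly factor 1) fell and no member rose, 0 higher and 2 lower, beside backgrounds of 6.53% higher and 4.24% lower. LIG1 measured 36.3, 40.1 and 41.5 CPM in WT_NTG and 28.0, 29.4 and 30.4 in WT_S13, with no overlap (-0.43, SE 0.095, edgeR adjusted p = 0.000726). CHAF1A went from 113, 97.0 and 109.5 to 78.9, 86.2 and 89.8 CPM (-0.33, SE 0.0661, adjusted p = 0.000209), also with no overlap. Its call sat at the fold limit and was lost without WT_NTG library 1 (-0.29), WT_NTG library 3 (-0.31), which left 1 called member, or WT_S13 library 1 (-0.28). A further 14 members had an adjusted p under 0.05 with a change of 1.25-fold or less, such as PRIM1 at -0.31, POLE and CHAF1B at -0.29 and CDT1 at -0.25. PRIM1 was called without WT_NTG library 1 (-0.35) or WT_S13 library 1 (-0.36), and CHAF1B without WT_NTG library 1 (-0.35) or WT_S13 library 3 (-0.36). The median member change was -0.02, and 22 of 45 members had an unadjusted p under 0.05, beside 5397 of 15378 genes. Both limma-trend and DESeq2 called 0 higher and 2 lower as well.

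With RfxCas13d-N2V7, RFC4 and TK1 rose and CHAF1A and POLE fell, 2 in each direction, beside 3.66% higher and 7.78% lower over all genes. RFC4 measured 71.5, 71.6 and 81.8 CPM in N2V7_NTG and 93.3, 100.3 and 101 in N2V7_S13 (0.39, SE 0.0552, edgeR adjusted p = 4.56e-07). TK1 went from 64.4, 66.2 and 64.1 to 81.7, 81.0 and 82.5 CPM (0.33, SE 0.0579, adjusted p = 2.05e-05). CHAF1A, the gene that also fell with the native nuclease, went from 97.3, 91.3 and 96.2 to 75.4, 68.1 and 69.0 CPM (-0.42, SE 0.0684, adjusted p = 6.03e-06). For these 3 genes and for POLE the groups did not overlap. POLE went from 139.6, 135 and 151 to 118, 107 and 114 CPM (-0.32, SE 0.0567, edgeR adjusted p = 2.4e-05). POLE lay at the fold limit: without N2V7_NTG library 3 or N2V7_S13 library 2 it stood at -0.28 and -0.29 and was not called, and with DESeq2 at -0.32 it missed the limit too. TK1 was not called with no factor of unwanted variation (adjusted p = 0.0885). RFC4 and TK1 were both under UT in N2V7_NTG, and these comparisons share the N2V7_NTG libraries with opposite sign. In N2V7_S13 they stood near their UT levels of 106, 99.96 and 103 CPM for RFC4 and 87.3, 73.8 and 84.6 CPM for TK1.

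With RfxCas13d-N2V8, edgeR called 0 higher and 0 lower members, where 1.72% of all genes were higher and 0.715% lower. An unadjusted p under 0.05 was reached by 13 of 45 members and 3009 of 15378 genes. Of the members, 8 had an adjusted p under 0.05 with a change of 1.25-fold or less, and limma-trend and DESeq2 called 0 as well. The extremes were E2F1, the transcription factor that gives the family its name, at 0.28 (95% interval 0.12 to 0.44, edgeR adjusted p = 0.00888) and RPA1, the large subunit of the single-strand binding protein, at -0.27 (adjusted p = 3.73e-05). E2F1 was called at 0.38 without N2V8_NTG library 1 and at 0.35 without N2V8_S13 library 1. LIG1, which fell with the native nuclease, measured 25.9, 26.8 and 24.7 CPM in N2V8_S13 against 25.5, 25.04 and 23.8 in N2V8_NTG, and the groups overlapped.

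The difference between nucleases in the crRNA-13 effect was tested directly as an interaction. Relative to the native nuclease, the effect with RfxCas13d-N2V7 was higher for 10 members and lower for 1, with backgrounds of 6.26% and 8.63%. PRIM1 differed most, by 0.60 (SE 0.0904, edgeR adjusted p = 1.62e-06), from -0.31 with the native nuclease and 0.29 with RfxCas13d-N2V7, neither of which exceeded 1.25-fold alone, although the second did without N2V7_S13 library 1 (0.35). RFC4 followed at 0.55, CHAF1B at 0.46, MCM5 at 0.44, POLA2 (a subunit of polymerase alpha), E2F1 and RRM2 at 0.42 each, TK1 at 0.40, CDT1 at 0.39 and CDC45 at 0.36. ORC6, an origin recognition subunit, was lower, by -0.33. Of the 10 higher members, PRIM1, RFC4, CHAF1B, E2F1, RRM2, TK1 and CDT1 were also called lower in N2V7_NTG against UT, and both comparisons use the N2V7_NTG libraries with opposite sign. Of the 47 other replication genes, 4 were higher and 7 lower, and of the 16 genes of G2 and mitosis 1 was higher and 7 lower. Of those 16, 4 rose and 0 fell in WT_S13 against WT_NTG, and 0 rose and 3 fell in N2V7_S13 against N2V7_NTG. The median difference was 0.11 over members and -0.02 over all genes. ORC6 lost its call without WT_NTG library 3 (-0.31), N2V7_NTG library 2 (-0.32), WT_S13 library 2 (-0.31), N2V7_S13 library 2 (-0.29) or library 3 (-0.31). With no factor of unwanted variation the differences of E2F1, TK1 and CDT1 missed the adjusted limit (adjusted p = 0.148, 0.143 and 0.272).

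For RfxCas13d-N2V8 against the native nuclease, 5 members were higher and 1 lower, with backgrounds of 8.55% and 9.72%. The higher were E2F1 (0.52, SE 0.113, edgeR adjusted p = 0.00049), LIG1 (0.49, SE 0.141, adjusted p = 0.00898), PRIM1 (0.46), CDT1 (0.43) and CHAF1B (0.36), and GMNN was lower (-0.35). LIG1, PRIM1, CDT1 and CHAF1B were also called lower in N2V8_NTG against UT, and both comparisons use the N2V8_NTG libraries with opposite sign. Mean LIG1 levels were 24.8 CPM in N2V8_NTG and 25.8 in N2V8_S13, against 39.3 in WT_NTG and 29.3 in WT_S13. With no factor of unwanted variation this count was 3, since E2F1, CDT1 and CHAF1B missed the adjusted limit (adjusted p = 0.063, 0.205 and 0.0509). GMNN lost its call without N2V8_NTG library 2 (-0.29), and CHAF1B without WT_NTG library 3 (0.32), WT_S13 library 2 (0.30) or N2V8_S13 library 1 (0.31). Between the high-fidelity variants, CHAF1A (0.38) and POLE (0.34) were higher and RPA2 (-0.36) and GINS2 (-0.35) lower with RfxCas13d-N2V8, 2 in each direction beside 8.86% higher and 5.37% lower. That count was 7 without N2V7_NTG library 2 or N2V8_S13 library 1 and 2 without N2V7_S13 library 2, where GINS2 (-0.29) and POLE (0.30) were not called. GINS2 was also lost without N2V7_NTG library 1 (-0.30), POLE without N2V7_NTG library 3 (0.29) or N2V8_NTG library 2 (0.32), and CHAF1A without N2V8_NTG library 3 (0.32).

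The additional crRNAs gave their clearest member changes with native RfxCas13d and crRNA S7, where 7 members rose and 4 fell, beside 9.36% higher and 9.83% lower over all genes. As shares that is 15.6% of members higher and 8.89% lower, the second under its background. The members that rose included both E-type cyclins and UNG, the uracil-DNA glycosylase. Genes of the fork stood on both sides, with GINS3 and FEN1 among the rises and LIG1, PRIM1, MCM5 and POLD1 as the falls. CCNE2 measured 21.5, 19.9 and 20.4 CPM in WT_NTG and 33.1, 45.5 and 38.5 in WT_S7 (0.92, SE 0.0975, edgeR adjusted p = 1.17e-10). UNG went from 101, 98.5 and 100.4 to 179.8, 182 and 158 CPM (0.79, SE 0.0549, adjusted p = 6.36e-17), and CCNE1 (cyclin E1) from 14.0, 12.8 and 12.8 to 22.0, 20.1 and 20.7 CPM (0.67, SE 0.122, adjusted p = 3.35e-05). No library overlapped between the groups for these 3 genes, and the WT_S7 mean was the highest of the 18 groups for each. GINS3 (0.40), RRM2 (0.37), ORC6 (0.37) and the flap nuclease FEN1 (0.33) completed the rises.

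LIG1 fell further in WT_S7 than any member did in any other comparison of 2 groups, from 36.3, 40.1 and 41.5 to 20.2, 17.8 and 17.7 CPM (-1.08, SE 0.102, edgeR adjusted p = 3.86e-12). PRIM1 went from 71.5, 75.3 and 78.6 to 47.9, 47.5 and 48.7 CPM (-0.64, SE 0.0653, adjusted p = 3.01e-11), and MCM5 from 91.3, 95.9 and 93.1 to 64.4, 70.6 and 63.6 CPM (-0.50, SE 0.0649, adjusted p = 2.92e-08). The catalytic subunit of polymerase delta, POLD1, changed by -0.37. None of these 4 genes overlapped between the groups. Here 33 of 45 members and 6814 of 15378 genes had an unadjusted p under 0.05. Both limma-trend and DESeq2 gave the same 7 higher and 4 lower, and the median member change was -0.02. Only RRM2 depended on 1 library, WT_S7 library 2, without which it stood at 0.31. Of the G1/S control list 10 of 32 rose and 1 fell in WT_S7, with a median of 0.20, and of the other replication genes 6 of 47 rose and 4 fell.

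With native RfxCas13d and S3, 5 of 45 members and 2113 of 15378 genes had an unadjusted p under 0.05. This nuclease gave 0 called members there (background 2.09% higher and 0.65% lower), and limma-trend and DESeq2 called 0 too. With S4 it gave 1 lower and 0 higher (background 0.657% and 2.01%), LIG1 again, from 36.3, 40.1 and 41.5 to 26.8, 32.6 and 32.3 CPM (-0.36, SE 0.0955, edgeR adjusted p = 0.00424). That call was lost without WT_NTG library 3 (-0.32) or WT_S4 library 1 (-0.28). All 4 comparisons of native RfxCas13d share the WT_NTG libraries, in which LIG1 had the highest mean of the 18 groups, 39.3 CPM, against 34.7 CPM in UT.

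With RfxCas13d-N2V7 and S4, 5 members rose and 7 fell (background 9.66% higher and 14.5% lower), but the count rested on the library that stood apart. Without N2V7_S4 library 2, 4 rose and 2 fell: RFC4 (0.36), PRIM1 (0.37), RRM2 (0.35) and CCNE2 (0.35) rose, and LIG1 (-0.61) and CHAF1A (-0.43) fell. The 4 that rose were also called lower in N2V7_NTG against UT, at -0.46, -0.79, -0.37 and -0.68 in that order. Both comparisons use the N2V7_NTG libraries with opposite sign, and the part of this shared control in the rises was not tested. LIG1 was the largest fall with all libraries (-0.68, SE 0.104, edgeR adjusted p = 1.12e-06), at 19.2, 19.2 and 24.8 CPM in N2V7_S4 against 33.5, 34.2 and 33.0 in N2V7_NTG. CDT1 measured 165, 64.4 and 182 CPM there against 168, 156 and 181 in N2V7_NTG, and its change went from -0.42 to 0.04 without library 2. E2F1 likewise went from -0.35 to 0.04, and POLD1, POLE, GINS3, ASF1B and CDC45 went from -0.49, -0.49, -0.39, -0.37 and 0.35 to -0.19, -0.29, -0.11, -0.19 and 0.14. When the fit held just the compared groups and no factor, 1 rose and 1 fell. The background shares above come from the fit with all libraries. No share over all genes is given for the other fits, so their counts cannot be set against a background. CCNE2 was also lost without N2V7_NTG library 1 (0.25) or N2V7_S4 library 3 (0.29), CDC45 without N2V7_NTG library 1 (0.30) and E2F1 without N2V7_NTG library 3 (-0.30).

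With RfxCas13d-N2V7 and S7, RFC4 rose (0.41, SE 0.0553, edgeR adjusted p = 8.14e-08) and CHAF1A (-0.40, SE 0.0686, adjusted p = 1.18e-05) and MCM10 (-0.36, SE 0.0606, adjusted p = 5.93e-06) fell, 1 higher and 2 lower beside 5.38% and 8.91%. RFC4 measured 95.8, 104 and 98.8 CPM in N2V7_S7, and CHAF1A 69.6, 70.8 and 75.7 CPM. MCM10, which helps to start the fork, went from 114, 108.5 and 119 to 86.5, 91.4 and 88.0 CPM. None of the 3 overlapped with N2V7_NTG. RFC4 was also called lower in N2V7_NTG against UT (-0.46), and both comparisons use the N2V7_NTG libraries with opposite sign. With S3, edgeR, limma-trend and DESeq2 called 0 members (background 3.13% higher and 1.02% lower). An unadjusted p under 0.05 was reached there by 14 of 45 members and 3332 of 15378 genes.

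With RfxCas13d-N2V8, S4 and S7 each gave 1 higher and 0 lower, LIG1 both times (backgrounds 2.95% higher and 3.21% lower for S4, 3.86% and 3.47% for S7). LIG1 measured 32.1, 34.95 and 28.5 CPM in N2V8_S4 (0.36, SE 0.102, edgeR adjusted p = 0.00754) and 30.2, 35.7 and 30.2 in N2V8_S7 (0.38, SE 0.102, adjusted p = 0.00528), above all 3 N2V8_NTG libraries of 25.5, 25.04 and 23.8. The direction is opposite to that with native RfxCas13d, where LIG1 stood lower with each crRNA that gave a call, and each N2V8 comparison shares the N2V8_NTG libraries. The controls differed, with LIG1 means of 24.8 CPM in N2V8_NTG, called lower than UT, and 39.3 in WT_NTG. With S4 the means were 31.9 CPM in N2V8_S4 and 30.6 in WT_S4, and with S7 they were 32.1 in N2V8_S7 and 18.6 in WT_S7. The UT mean was 34.7 CPM. LIG1 was not called without library 2 of N2V8_S4 (0.29) or of N2V8_S7 (0.29). Without library 3 of N2V8_S4, PRIM1 joined it at 0.32. In N2V8_S7 the count was 3 without N2V8_NTG library 1 or N2V8_S7 library 1 and 2 without N2V8_S7 library 3. S3 gave 0 higher and 0 lower by edgeR (background 2.15% and 0.917%), where limma-trend and DESeq2 called E2F1 (0.33 and 0.32, 0.32 by edgeR). An unadjusted p under 0.05 was reached with S3 by 14 of 45 members and 3092 of 15378 genes. E2F1 was also called without N2V8_NTG library 1 (0.42), N2V8_S3 library 1 (0.35, together with CDT1 at 0.35) or N2V8_S3 library 2 (0.33).

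**Figure D3:**
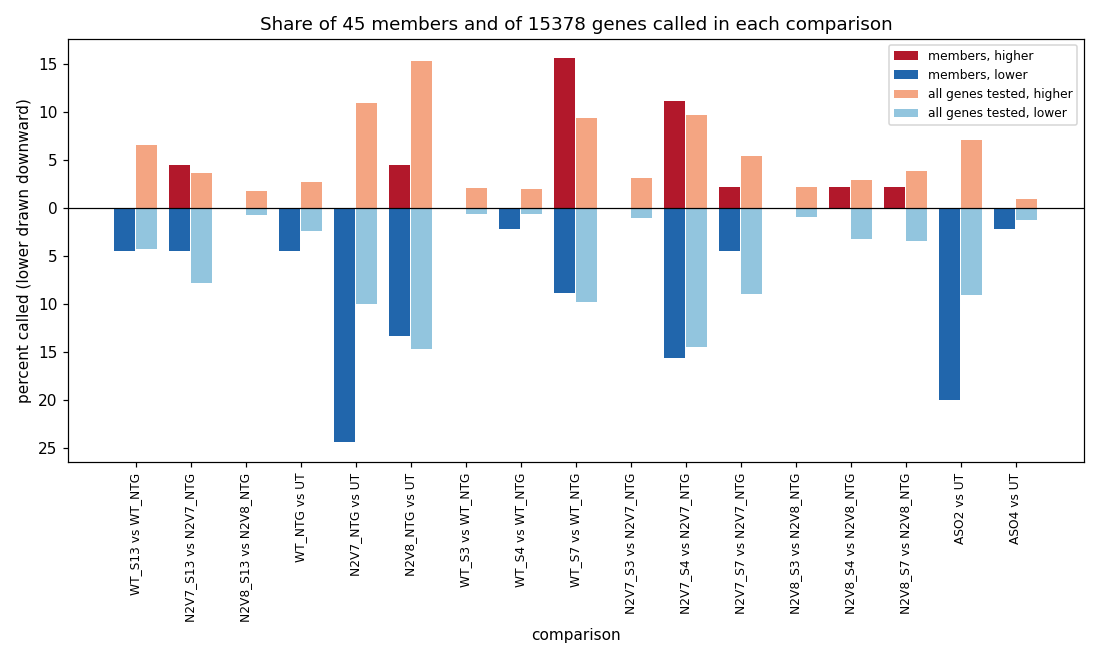
Share of the 45 members and of the 15378 tested genes called higher (upward) and lower (downward) in each of 17 comparisons. Members called lower reach 24.4% in N2V7_NTG against UT and 20.0% in ASO2 against UT, beside 9.95% and 9.01% of all genes.

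In cells given ASO2, 9 of 45 members fell relative to untransfected cells (20.0%) and 0 rose, beside 9.01% lower and 7.07% higher over all genes. Of the 45, 40 had a negative change, as did 7413 of all 15378 genes, and the median was -0.19 against 0.01 over all genes. LIG1 measured 33.2, 35.8 and 35.2 CPM in UT and 22.0, 24.2 and 19.03 in ASO2 (-0.68, SE 0.101, edgeR adjusted p = 5.67e-07). POLE went from 145, 160.0 and 159 to 105, 93.1 and 98.3 CPM (-0.65, SE 0.0568, adjusted p = 1.28e-13), and MCM7 from 444, 429 and 439 to 303, 323 and 319 CPM (-0.47, SE 0.0408, adjusted p = 6.2e-14). RRM2 fell from 346, 346 and 351 to 259, 264 and 259 CPM (-0.42, SE 0.0462, adjusted p = 2.81e-10). The groups did not overlap for any of these 4.

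The other falls were POLA1, the catalytic subunit of polymerase alpha (-0.40), UNG (-0.37), POLD1 (-0.36), GINS1 (-0.35) and MCM4 (-0.33), so that 3 of 6 polymerase and primase genes and 2 of 6 MCM subunits were among them. GINS1 lost its call without UT library 2 (-0.32) or ASO2 library 1 (-0.29), UNG without ASO2 library 1 (-0.32), MCM4 without ASO2 library 2 (-0.32) or 3 (-0.31) and POLD1 without ASO2 library 2 (-0.32). For the 0 higher, 31 of 45 members of either sign had an unadjusted p under 0.05, beside 6311 of 15378 genes. Both limma-trend and DESeq2 gave 0 higher and 9 lower. PRIM1 and CDT1, the largest falls in the high-fidelity NTG groups, stood at -0.19 and -0.31 in ASO2 and were not called. CDT1 was called there without UT library 2 (-0.37) or ASO2 library 2 (-0.34) or 3 (-0.32). Of the G2 and mitosis list 6 of 16 rose and 0 fell, with a median of 0.26, and of the other replication genes 0 of 47 rose and 3 fell.

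ASO4 gave 1 lower and 0 higher (background 1.22% and 0.917%), POLA1, at 85.7, 97.8 and 91.2 CPM in UT and 73.8, 64.1 and 76.9 in ASO4 (-0.35, SE 0.0695, edgeR adjusted p = 0.000113). POLA1 was not called without UT library 2 (-0.30) or ASO4 library 2 (-0.28), which left 0, and CCNE2 joined it without UT library 3 (-0.35) or ASO4 library 3 (-0.40). For the 0 higher, 10 of 45 members of either sign had an unadjusted p under 0.05, beside 2354 of 15378 genes, and limma-trend and DESeq2 also called 0. Both ASO comparisons share the UT libraries with each other and with the NTG comparisons.

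Taken over all 45 genes, the mean log2 level of a library relative to its mean over the 54 libraries was highest in UT, at 0.14, 0.09 and 0.11, and every other library was at or below 0.07. By group mean it was lowest in ASO2 at -0.08 ± 0.02 (SD, n = 3) and in N2V7_S4 at -0.08 ± 0.12, where library 2 alone lay at -0.21, and next in WT_S13 at -0.06 ± 0.02. All other groups fell between -0.04 and 0.05.

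**Figure D4:**
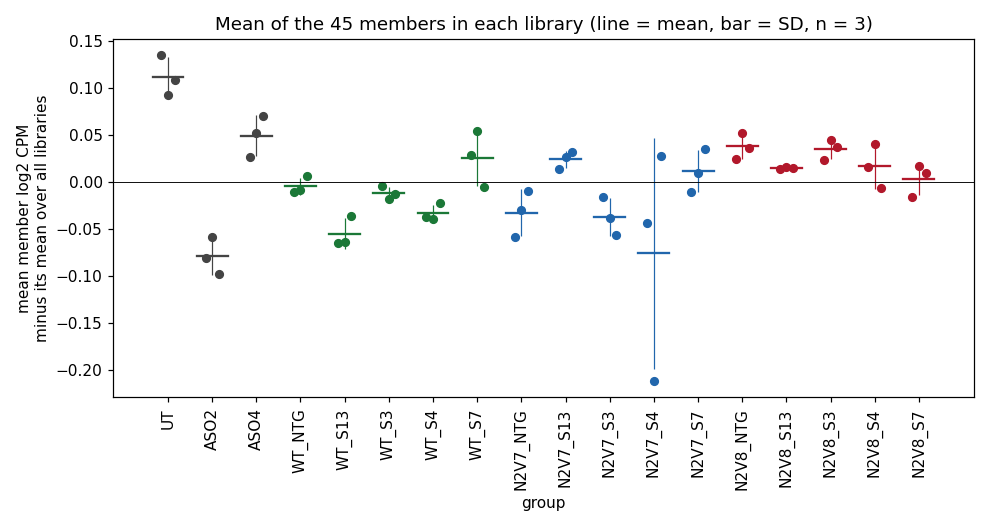
Mean over the 45 genes of log2 CPM minus each gene's mean over all libraries, by library (points), with group mean (line) and SD (bar, n = 3). The 3 UT libraries lie between 0.09 and 0.14, and N2V7_S4 library 2 lies at -0.21.

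The genes did not move as a block. Over the 18 group means the median Pearson correlation between pairs of members was 0.12, against -0.0005 between pairs of all tested genes. Of the member pairs 15.2% exceeded 0.5, a share that was not computed over all genes. These group means share libraries, depth and the controls, and the values are a description. With all libraries the pair most alike was MCM2 with POLD1 (0.88), which dropped to 0.71 without N2V7_S4 library 2. The next were CDC45 with GINS2 (0.86, and 0.91 without that library), RPA1 with RPA2 (0.86 and 0.86), MCM10 with CHAF1A (0.85 and 0.87) and MCM5 with POLA2 (0.85 and 0.89). The pair most opposed was GINS2 with RFC1 (-0.81 and -0.87). The median over pairs was 0.13 without that library.

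Fold changes were set against transcript length (MANE Select, GENCODE v44). In WT_S13, N2V7_S13, N2V7_S7 and ASO2 the longer members had the lower fold changes, with Spearman correlations across the 45 genes of -0.38, -0.37, -0.42 and -0.42, and over 13268 tested genes with a length the correlations were -0.25, -0.41, -0.44 and -0.28. The values over members lay farther from those over all genes in WT_S7 (-0.35 and -0.09), WT_S4 (-0.35 and -0.12) and WT_NTG against UT (0.30 and -0.0079). In N2V8_S13 the sign was positive for both, 0.21 over members and 0.16 over all genes. Genes are not independent replicates, so these values describe the fits and carry no test. In ASO2 the 15 shortest members, up to 2020 bases, had a median change of -0.04 and the 15 longest, from 3366 bases, a median of -0.23, while POLE, the longest at 7823 bases, stood at -0.65. The part of transcript length in the member calls was not tested.

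**Figure D5:**
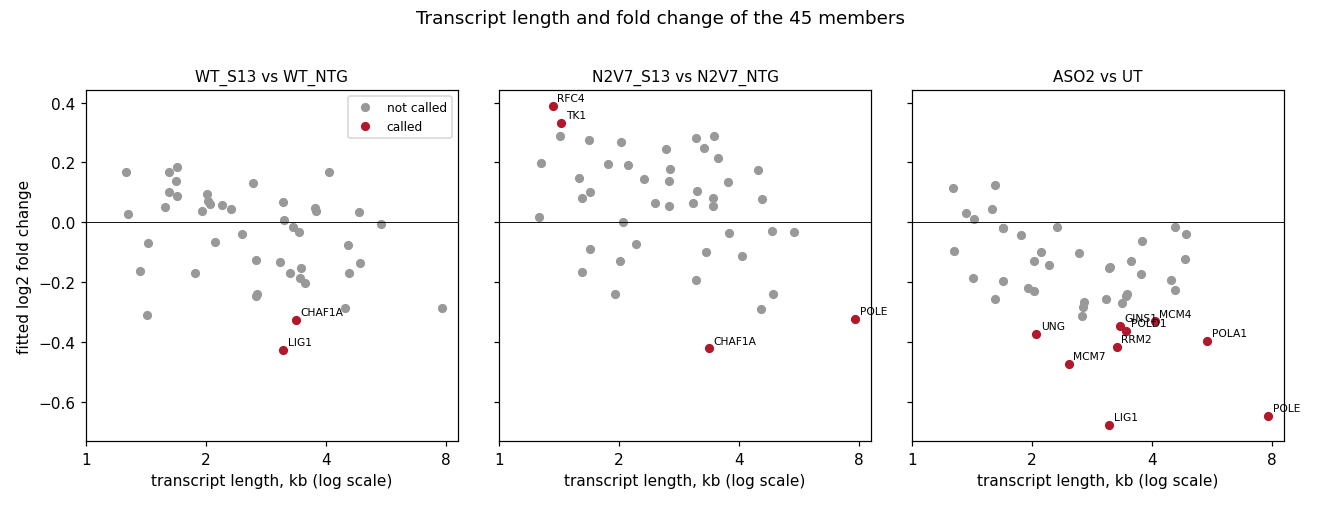
Transcript length in kb (log scale) against fitted log2 fold change of the 45 genes in WT_S13, N2V7_S13 and ASO2, with called genes in red and named. POLE at the right edge is the longest gene and the called genes that rose, RFC4 and TK1, are short, at 1365 and 1431 bases.

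Some members lie over other genes. CHAF1A overlaps UBXN6, GINS2 overlaps GSE1, CCNE2 overlaps INTS8 and NDUFAF6, RPA3 overlaps UMAD1, and TYMS overlaps TYMSOS and ENOSF1, all on the opposite strand, and the library kit kept strand. MCM7 hosts MIR25, MIR93 and MIR106B on its own strand. Among the members called with crRNA-13, LIG1 spans chr19:48115445-48170344 (28 exons in its main transcript), CHAF1A chr19:4402640-4450830 (15), RFC4 chr3:186789900-186806482 (11), TK1 chr17:78174079-78187204 (7) and POLE chr12:132623762-132687342 (49), all on GRCh38.p14 in RefSeq and counted over the whole gene.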

How the data were processed

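Polyadenylated RNA of 54 HEK293T libraries (18 groups of 3) was read with a stranded kit in paired ends on a NovaSeq instrument. The authors deposited estimated counts per gene, made with Salmon 1.5.2 and scaled by length and library in tximport under R 4.2.2, and GRCh38 is the human build named in the submitters' processing notes. Library totals were 9546826 to 15099153, and counting error weighs more on members with few counts. The members and all gene lists were chosen with earlier results of these data known.

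Estimated counts were rounded and analysed in R 4.3.3 with edgeR 4.0.16 (filterByExpr, TMM, quasi-likelihood F test, 35 residual degrees of freedom) on all 54 libraries, with a group term and 1 RUVr factor. Values were called past 1.25-fold at an adjusted p under 0.05, with Benjamini-Hochberg adjustment over all genes and all comparisons of a family. CPM are TMM-scaled, and log2 CPM used a prior count of 2. Intervals are 95%. Scripts were tested on simulated data. By the naming rule, at most 5 rises and 5 falls in a comparison get full statistics, and values in each library go to members called with crRNA-13 and at most 6 further members called most often (CCNE2, PRIM1, RRM2 and CDT1 were used). CDC45, GINS2, UNG, CCNE1, MCM5, MCM7, MCM10 and POLA1 were given by library too, and members near the limit were named, chosen after their values were seen. Alternatives were no factor, limma-trend, the study's own test (limma 3.58.1), DESeq2 1.42.0, DESeq2 size factors, no low-count filter, a replicate block, only the compared libraries, and leaving out each library. Dropping N2V7_S4 library 2 from the whole fit and from the correlations was added after seeing the data. Replicate numbers did not pair the libraries (mean residual correlation 0.00112). Promoter words were read in RefSeq windows.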

Additional observations from a re-analysis of the deposited data

Results flagged for a closer look

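The crRNA-13 effect of 21 member values differed between nucleases by a test of the difference itself (edgeR, interaction term, 3 libraries in each of 4 groups). RfxCas13d-N2V7 minus native RfxCas13d gave log2 differences of 0.3631 for CDC45, 0.3857 for CDT1, 0.4617 for CHAF1B, 0.4199 for E2F1, 0.4405 for MCM5, 0.4201 for POLA2, 0.6 for PRIM1, 0.5522 for RFC4, 0.419 for RRM2, 0.4009 for TK1 and -0.3324 for ORC6. RfxCas13d-N2V8 minus native RfxCas13d gave 0.4339 for CDT1, 0.3577 for CHAF1B, 0.5194 for E2F1, 0.487 for LIG1, 0.4557 for PRIM1 and -0.3516 for GMNN. RfxCas13d-N2V8 minus RfxCas13d-N2V7 gave 0.3829 for CHAF1A, 0.336 for POLE, -0.3517 for GINS2 and -0.3609 for RPA2. In that order, 22.2%, 11.1% and 4.44% of members were called higher, beside 6.26%, 8.55% and 8.86% of all genes tested. Called lower were 2.22%, 2.22% and 4.44% of members, beside 8.63%, 9.72% and 5.37% of all genes tested. The 3 differences share libraries pairwise and are not independent.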

How the results depend on the processing

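Of 66 member calls in comparisons of 2 groups, 35 held under every alternative and every left-out library, and of 21 calls of a difference between nucleases 10 did. With N2V7_S4 library 2 dropped from the whole fit, or left out, CDT1 and E2F1 in N2V7_S4 turned to 0.0416 and 0.0363 and the members called there numbered 6, against 2 when the fit held just the compared libraries without a factor. Without N2V7_S4 library 3 these genes stood at -0.6914 and -0.568. With no factor of unwanted variation 3 members differed between RfxCas13d-N2V8 and native RfxCas13d. The count for N2V8_S3 was 1 in place of 0 with limma-trend, DESeq2, DESeq2 size factors, no low-count filter or only the compared libraries, and N2V8_S7 had 2 with no low-count filter. The fit with a replicate block gave 2 members called in WT_S13, 4 in N2V7_S13 and 0 in N2V8_S13, as without it, and kept all 87 calls.

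Leaving out 1 library at a time, the members called numbered 1 to 3 in WT_S13, 4 to 6 in N2V7_S13 and 0 to 1 in N2V8_S13. The differences between nucleases gave 10 to 11 (N2V7 against WT), 5 to 9 (N2V8 against WT) and 2 to 7 (N2V8 against N2V7). Against UT there were 2 to 5 in WT_NTG, 8 to 12 in N2V7_NTG, 8 to 10 in N2V8_NTG, 7 to 10 in ASO2 and 0 to 2 in ASO4. With S3 the range was 0 to 0 in WT and N2V7 and 0 to 2 in N2V8, with S4 0 to 1, 6 to 16 and 0 to 2, and with S7 10 to 11, 3 to 4 and 1 to 3. The causes of these shifts were not tested. By mean level the members with the fewest counts were CCNE1, CCNE2 and POLE2, at 13.6, 21.7 and 23.4 CPM, and many calls lay close to 1.25-fold.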
